A study of Mus musculus with 6 samples.

Results

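The genes described are those of innate sensing through Toll-like receptors, NLR proteins and the interleukin-1 family. They were taken from the gene symbols: all numbered Tlr, Nlrp, Nlrc and Irak genes, the named interleukin-1 ligands and receptors, and 13 single genes such as Nod1, Aim2, Pycard, Myd88, Cd14, Il18 and Il33. Of the 22180 genes tested, 57 were members, 12 of them Toll-like receptors, 2 co-receptors, 7 adaptors and IRAK kinases, 5 interleukin-1 family ligands or antagonists, 4 receptors of that family and 27 NLR genes with Aim2 and Pycard. Il1rl1 and Irak4 also match the rule and were not analysed here.

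Total kidney RNA of 6 samples, 3 labelled Cre-positive and 3 labelled Cre-negative, was hybridised to 1 Affymetrix array each, and the authors deposited log2 expression values made with RMA. All came from untreated mice of mixed background killed at 4 weeks. For every sample alike the labels give a conditional knockout (cKO) of Pals1/Mpp5, kept in a C56Bl/6 background as the labels spell it, and Six2-Cre mice of mixed background. Mpp5 encodes PALS1, which holds the Crumbs complex together at the apical side of epithelial cells, and Six2-Cre is active in cells that give rise to nephrons but not to collecting ducts, vessels or leukocytes. The series title names haplo-insufficiency of Pals1 in nephrons, but the number of conditional alleles behind each sample is not given in the sources used here. Nor do they say whether each sample was a separate mouse, so a p-value reflects the spread among these arrays alone, part of which may be technical.

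Toll-like receptors bind microbial products or molecules set free by damaged cells, at the cell surface or in endosomes, and signal through the adaptor MyD88 or, for Tlr3 and part of Tlr4 signalling, through TRIF, which Ticam1 encodes. MyD88 recruits IRAK kinases, which lead to NF-kappaB. The receptors of the interleukin-1 family use the same MyD88 and IRAK route. NLR proteins and AIM2 sense signals in the cytosol, and some of them assemble with ASC, encoded by Pycard, into inflammasomes that activate caspase-1, which processes interleukin-1 beta and interleukin-18. In the kidney these genes are known from tubule cells as well as from resident and infiltrating macrophages.

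Promoter sequence is shown for both members that fell and for 2 that rose, Tlr2 and Myd88, which do not represent the other members that rose. Each sequence is the 250 bases before the RefSeq start in GRCm38.p6, read 5′ to 3′ on the gene's strand. Capitals mark the AP-1 motif TGANTCA in Nlrp6, the NF-kappaB consensus in Tlr2 (2 overlapping matches) and the interferon response motif in Myd88, while none of the 6 motifs searched was found in Tlr12.
Nlrp6 (chr7:140920652-140920901, plus strand): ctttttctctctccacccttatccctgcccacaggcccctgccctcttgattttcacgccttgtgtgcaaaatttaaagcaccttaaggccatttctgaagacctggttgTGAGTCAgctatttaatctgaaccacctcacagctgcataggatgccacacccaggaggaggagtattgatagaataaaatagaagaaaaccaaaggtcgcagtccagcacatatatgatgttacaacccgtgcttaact
Tlr12 (chr4:128618620-128618869, minus strand): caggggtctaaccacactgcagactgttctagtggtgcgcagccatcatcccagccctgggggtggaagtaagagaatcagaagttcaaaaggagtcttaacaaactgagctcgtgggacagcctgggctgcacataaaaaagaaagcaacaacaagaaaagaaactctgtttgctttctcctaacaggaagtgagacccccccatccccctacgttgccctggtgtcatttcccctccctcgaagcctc
Tlr2 (chr3:83841609-83841858, minus strand): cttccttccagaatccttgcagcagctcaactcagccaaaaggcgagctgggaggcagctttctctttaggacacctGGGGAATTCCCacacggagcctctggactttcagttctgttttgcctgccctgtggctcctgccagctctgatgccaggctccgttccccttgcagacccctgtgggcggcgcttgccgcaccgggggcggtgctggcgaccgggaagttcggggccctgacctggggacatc
Myd88 (chr9:119340019-119340268, minus strand): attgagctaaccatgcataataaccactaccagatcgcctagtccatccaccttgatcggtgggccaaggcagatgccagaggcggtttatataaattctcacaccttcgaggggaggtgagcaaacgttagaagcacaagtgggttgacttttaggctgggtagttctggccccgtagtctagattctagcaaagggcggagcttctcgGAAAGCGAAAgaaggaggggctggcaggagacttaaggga
The NF-kappaB match of Tlr2 lies 173 to 163 bases before the start, the AP-1 match of Nlrp6 140 to 134 bases before it and the interferon response match of Myd88 40 to 31 bases before it. Of 32851 promoter windows of this length, 3.90% held the NF-kappaB consensus on either strand, 6.75% TGANTCA and 2.98% the interferon response motif. RefSeq gave windows for 46 of the 57 members, 63 in all, of which 4 held the NF-kappaB consensus, in Tlr2, Il1r1, Nlrp3 and Tlr3, 8 held TGANTCA and 3 the interferon response motif. A PU.1 motif, GAGGAAGT, stood in 7 of the 63 windows against 2.44% of all, in Aim2, Pycard, Tlr1, Tlr11, Nlrp1a, Nlrp1b and Nlrp4c. Of these genes only Aim2 was among those that rose or fell. The 2 liver and kidney factor motifs searched were CAAAGTCC of HNF4, found in 2 member windows (Tlr13 and Nlrc4) against 1.20% of all, and that of HNF1, found in 0 against 0.371% of all. Windows were at hand for 12 of the 16 members that rose or fell. Among the members with a window that rose, only Tlr2 and Il1r1 held the NF-kappaB consensus and only Myd88 the interferon response motif. All these matches describe letters in the windows only, and the motifs and the windows shown were chosen with the values known.

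Facts of the whole series bear on every result below. Mpp5 itself was lower in the Cre-positive arrays, at 8.04, 8.06 and 8.20, against 8.66, 8.69 and 8.78 in the Cre-negative arrays (a log2 difference of -0.61 ± 0.09, limma adjusted p = 0.00232). The sexes were uneven: Xist lay between 4.00 and 4.29 in all Cre-positive arrays and in Cre-negative replicate 3, whereas Cre-negative replicates 1 and 2 had 10.76 and 10.70, and Y-linked genes showed the reverse. Cre-positive replicate 2 held muscle transcripts (Myh4 at 7.72, elsewhere 3.93 to 4.86), and Cre-negative replicate 2 held adrenal transcripts (Cyp11b1 at 11.10, elsewhere 3.85 to 4.24). Kidney markers were present in all 6 arrays, and 6 of 10 fell and 1, Aqp2, rose in the Cre-positive ones. In limma's fit over all genes, 2372 genes, or 10.7%, were higher and 2472, or 11.1%, were lower at an adjusted p under 0.05. With each array centred on its median the split was 1925 higher and 3112 lower.

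Differences below are log2, Cre-positive minus Cre-negative, ± SE from that fit, with n = 3 arrays per group and p-values adjusted over all 22180 genes by the Benjamini-Hochberg method. Of the 57 members 14 were higher, 2 were lower and 41 did not pass. That is 24.6% higher, where the share over all genes is 10.7%, and 3.51% lower, where it is 11.1%. The same shares over all genes stand behind every count of members, list genes and markers from this fit below. The median difference of the members was 0.24, beside -0.01 for all genes tested. The groups did not overlap for 23 members with higher and 3 with lower Cre-positive values, where 18.6% and 19.9% of all genes did so. Because the sexes were uneven, a second fit held a term for sex, as given by these transcripts. Both female arrays were Cre-negative, so its differences are those of the 3 Cre-positive arrays against the 1 male Cre-negative array. The female arrays enter that fit only through the spread, and a call lost there does not show an effect of sex. With this sex term 9 members were higher and 2 lower, all 11 among the 16, where 4.10% and 5.05% of all genes were. Set against the 1 male Cre-negative array alone, 4 of the 14 rises (Cd14, Tlr4, Irak3 and Il18r1) and both falls passed. Without replicate 2 of either group the calls of Il1rn, Il1r1, Aim2 and Nlrp10 were lost. In bulk RNA a change in the number of cells that make a transcript and a change in the RNA per cell cannot be told apart.

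**Figure D1:**
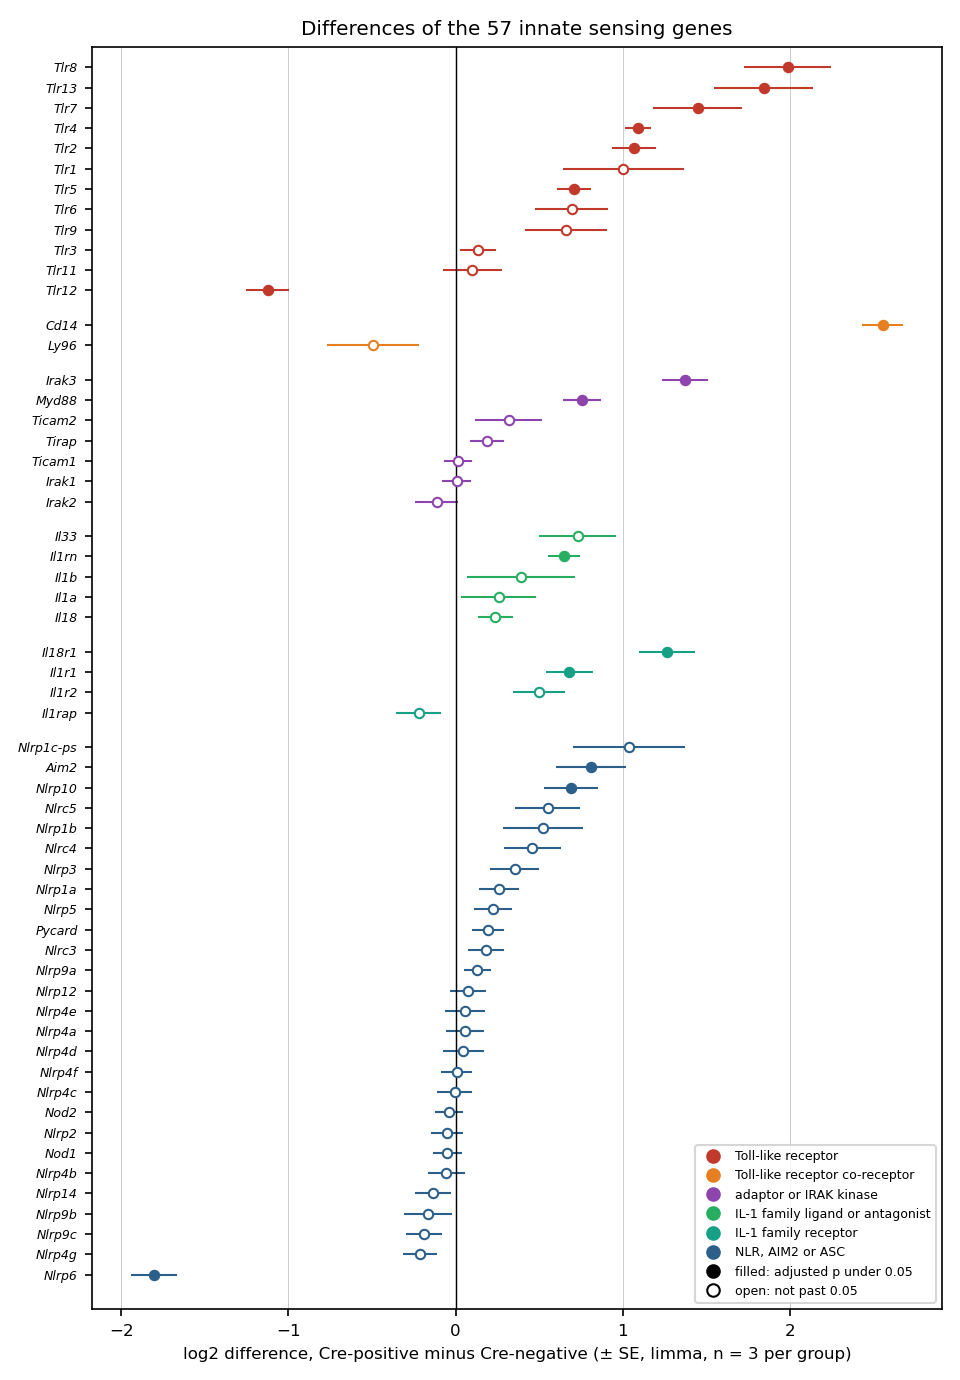
Log2 difference of each of the 57 innate sensing genes, Cre-positive minus Cre-negative, with its SE from limma (n = 3 arrays per group), grouped by role. Filled points passed an adjusted p of 0.05: 14 lie to the right of 0, with Cd14 farthest at 2.56, and 2 to the left, Nlrp6 at -1.80 and Tlr12 at -1.12.

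Among the 12 Toll-like receptor transcripts 6 rose, 1 fell and 5 did not pass, with a median difference of 0.86. That is 50% higher and 8.33% lower, beside 10.7% and 11.1% of all genes. The rises ran across receptors of the cell surface and of endosomes. Neither Tlr3 nor Tlr11 passed, and Tlr12 moved the other way. Of 13 macrophage and monocyte markers 10 rose in the same arrays, and their part in these rises was not tested.

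Tlr4, the receptor for bacterial lipopolysaccharide (Entrez gene 21898, probe set 17414836), stood at 6.99, 6.99 and 7.05 in Cre-positive arrays, against 5.86, 5.94 and 5.95 in Cre-negative arrays. All 3 Cre-positive values lay close together and far above the others, for a difference of 1.09 ± 0.08, or 2.13-fold (adjusted p = 0.000136 by limma). Tlr2, which senses bacterial lipoproteins and whose promoter is shown above with its NF-kappaB match, was at 7.35, 7.54 and 7.82 in Cre-positive arrays, against 6.60, 6.38 and 6.54 in Cre-negative arrays, a difference of 1.07 ± 0.13 (limma adjusted p = 0.00125). Tlr5, the flagellin receptor, was at 6.86, 6.55 and 6.70 in Cre-positive and at 6.04, 5.96 and 5.98 in Cre-negative arrays, a difference of 0.71 ± 0.10 (limma adjusted p = 0.00220). For these 3 surface receptors the lowest Cre-positive array exceeded the highest Cre-negative one, and all 3 calls held with the sex term.

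The endosomal receptors Tlr7 and Tlr8, which recognise single-stranded RNA, and Tlr13, which in mice recognises bacterial ribosomal RNA, rose by more than any surface receptor that passed. Tlr8 was at 6.61, 6.35 and 7.24 in Cre-positive arrays, against 4.41, 4.65 and 5.17 in Cre-negative arrays, a difference of 1.99 ± 0.26 (limma adjusted p = 0.00160). Tlr13 was at 6.48, 6.86 and 7.79 in Cre-positive arrays, against 5.07, 5.17 and 5.36 in Cre-negative arrays, a difference of 1.84 ± 0.29 (limma adjusted p = 0.00377). Tlr7 was at 6.83, 7.10 and 7.84 in Cre-positive arrays, against 5.83, 6.12 and 5.47 in Cre-negative arrays, a difference of 1.45 ± 0.27 (limma adjusted p = 0.00685). In each of these 3 genes Cre-positive replicate 3 was the highest array and the groups did not overlap. All 3 are X-linked. With the sex term, that is against the single male Cre-negative array, differences were 1.56 for Tlr8, 1.69 for Tlr13 and 1.79 for Tlr7. The limma adjusted p with this term was 0.0287 for Tlr8, 0.0595 for Tlr13 and 0.0269 for Tlr7, so the call of Tlr13 was lost.

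Tlr12, which in mice recognises a profilin of Toxoplasma parasites, was the receptor that fell (Entrez gene 384059, probe set 17430270). It was at 5.75, 5.65 and 6.12 in Cre-positive arrays, against 6.98, 6.91 and 6.99 in Cre-negative arrays. The Cre-negative values were nearly equal and all Cre-positive values lay below them, a difference of -1.12 ± 0.13 that held with the sex term (limma adjusted p = 0.000917, and 0.0160 with the term). Tlr11, which recognises the same kind of ligand, was at 5.02, 5.65 and 5.59 in Cre-positive and 5.43, 5.11 and 5.42 in Cre-negative arrays, and the groups overlapped (0.10 ± 0.18, limma adjusted p = 0.754).

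Tlr3, the receptor for double-stranded RNA, also overlapped between groups, at 8.95, 9.09 and 9.27 in Cre-positive arrays and 8.97, 9.08 and 8.86 in Cre-negative arrays. Its difference of 0.13 ± 0.11 has a 95% interval of -0.12 to 0.39 and did not pass (limma adjusted p = 0.461). The other 3 receptors did not pass either. Tlr1, a partner of Tlr2, was at 6.49, 6.67 and 8.02 in Cre-positive arrays and 5.89, 6.21 and 6.06 in Cre-negative arrays (1.01 ± 0.36, limma adjusted p = 0.0881), with 1 Cre-positive array well above the other two. Without Cre-positive replicate 3 its difference was 0.53 with limma adjusted p = 0.0263, and without Cre-positive replicate 1 it was 1.29 with limma adjusted p = 0.0455. Tlr6, the other partner of Tlr2, had a difference of 0.70 ± 0.22 (limma adjusted p = 0.0572), and Tlr9, a receptor for unmethylated DNA, one of 0.66 ± 0.24 (limma adjusted p = 0.0944). Both passed without Cre-positive replicate 1, at 0.88 for Tlr6 and 0.96 for Tlr9 (limma adjusted p = 0.0267 and 0.00441). Tlr1 and Tlr6 are close paralogs, so the assignment of signal to one or the other is uncertain.

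**Figure D2:**
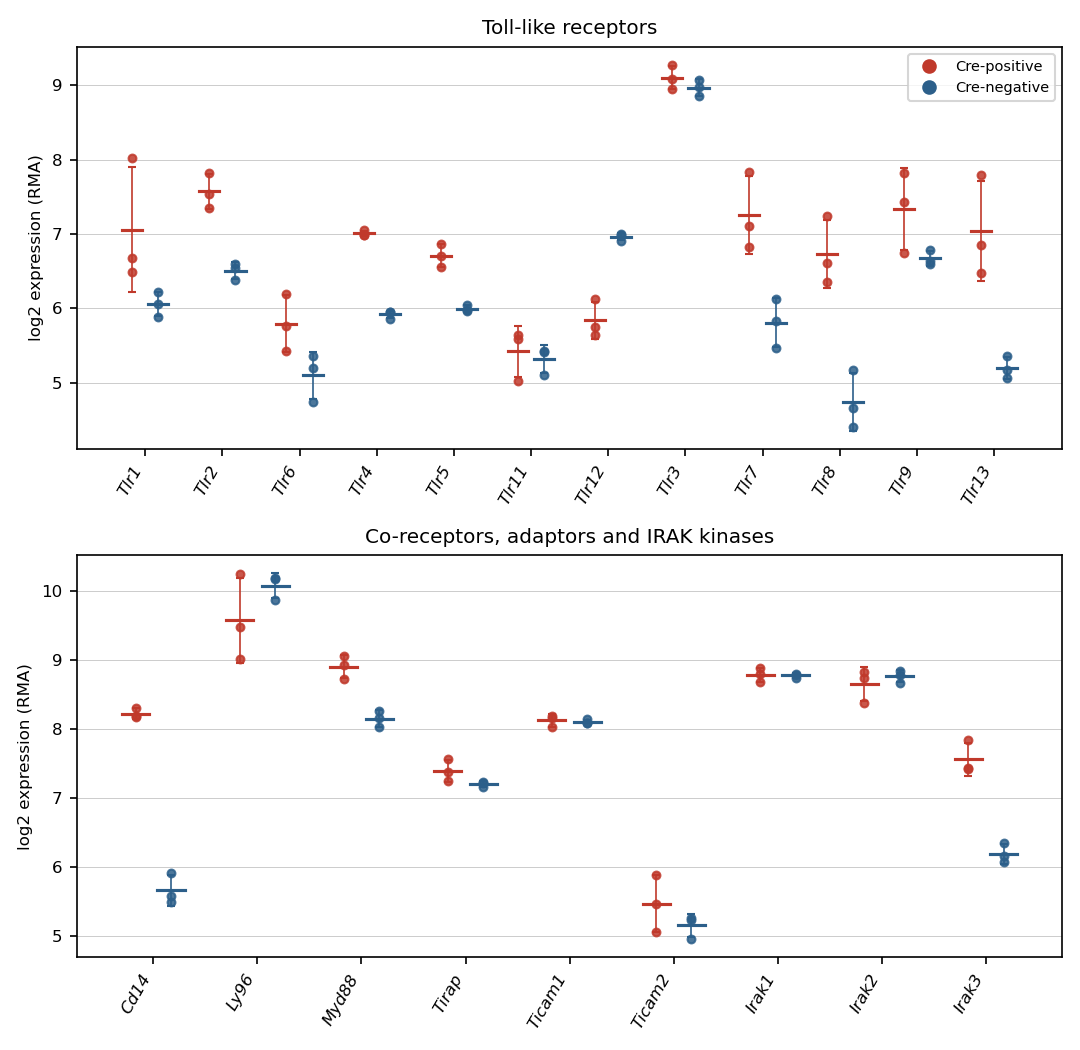
Log2 RMA level of each Toll-like receptor (top) and of the co-receptors, adaptors and IRAK kinases (bottom) in every array. Points are arrays, bars the mean ± SD of 3 Cre-positive (left of each pair) and 3 Cre-negative arrays (right). Tlr4 and Cd14 separate with little spread, the Cre-positive values of Tlr1, Tlr7 and Tlr13 spread more widely, and Tlr12 lies lower in the Cre-positive arrays.

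Of the 2 co-receptors of Tlr4, 1 rose and 1 did not pass. Cd14, which hands lipopolysaccharide to Tlr4 and also serves Tlr2 (Entrez gene 12475), was at 8.17, 8.19 and 8.31 in Cre-positive arrays, against 5.58, 5.92 and 5.49 in Cre-negative arrays. This was the member with the greatest difference, at 2.56 ± 0.12 or 5.88-fold (limma adjusted p = 4.04e-05, and 0.000736 with the sex term). Ly96 encodes MD-2, the subunit that binds lipopolysaccharide with Tlr4, and was at 9.02, 9.47 and 10.24 in Cre-positive arrays and 10.18, 10.18 and 9.87 in Cre-negative arrays. The 3 Cre-positive arrays of Ly96 were far apart, from below to just above the Cre-negative ones, and the difference of -0.50 ± 0.28 did not pass (limma adjusted p = 0.262). Without Cre-positive replicate 3 it was -0.83 with limma adjusted p = 0.0155.

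Among the 7 adaptors and kinases, 2 rose, 0 fell and 5 did not pass. Irak3, the IRAK member that lacks kinase activity and restrains Toll-like receptor signalling, was at 7.43, 7.42 and 7.84 in Cre-positive arrays, against 6.07, 6.35 and 6.15 in Cre-negative arrays (1.37 ± 0.14, 2.59-fold, limma adjusted p = 0.000534). Myd88, the shared adaptor, was at 8.72, 8.93 and 9.06 in Cre-positive arrays, against 8.02, 8.26 and 8.16 in Cre-negative arrays (0.76 ± 0.11, limma adjusted p = 0.00300). For both genes the groups did not overlap and the calls held with the sex term. Of the kinases that carry the signal forward, Irak1 (0.01 ± 0.09) and Irak2 (-0.11 ± 0.13) did not pass (limma adjusted p = 0.968 and 0.616). Irak4, which has no row of its own, could not be tested. The 95% interval of Irak1 was -0.20 to 0.21 and that of Irak2 -0.41 to 0.19, so rises of the size seen for Irak3 lie outside both. Ticam1, the adaptor of Tlr3, was at 0.02 ± 0.08, with an interval of -0.18 to 0.21. Tirap, which bridges Tlr2 and Tlr4 to MyD88, was at 0.19 ± 0.10, and Ticam2, which bridges Tlr4 to TRIF, at 0.32 ± 0.20 (limma adjusted p = 0.244 and 0.322).

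In the interleukin-1 family 3 of 9 members rose, namely the antagonist and 2 receptors, and the 4 agonist ligands did not pass. Il1rn, which encodes the interleukin-1 receptor antagonist, was at 5.50, 5.68 and 5.76 in Cre-positive arrays, against 5.01, 4.93 and 5.06 in Cre-negative arrays. The groups were well apart, for a difference of 0.65 ± 0.10 (limma adjusted p = 0.00287), and with the sex term it was 0.59 (limma adjusted p = 0.0526). Il1b, the main interleukin-1 made by macrophages, was at 4.72, 5.26 and 6.08 in Cre-positive arrays and 5.22, 5.10 and 4.57 in Cre-negative arrays. Cre-positive replicate 1 lay among the Cre-negative values of Il1b, replicate 2 just above them and replicate 3 well above, and the difference of 0.39 ± 0.32 did not pass (limma adjusted p = 0.468, 95% interval -0.36 to 1.14).

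Il1a, the form released by damaged cells, was at 3.85, 3.49 and 4.49 in Cre-positive arrays and 3.60, 3.71 and 3.75 in Cre-negative arrays (0.26 ± 0.23, limma adjusted p = 0.490). Il18, an inflammasome product that tubule epithelium also makes, was at 4.75, 4.98 and 4.95 in Cre-positive arrays and 4.76, 4.52 and 4.68 in Cre-negative arrays (0.24 ± 0.10, limma adjusted p = 0.153). In both genes the groups overlapped. Il33, a nuclear alarmin of stromal and epithelial cells, was at 7.36, 7.88 and 8.40 in Cre-positive arrays, against 7.23, 7.15 and 7.08 in Cre-negative arrays. The groups of Il33 did not overlap, but the Cre-positive arrays were spread over a whole log2 unit, and the difference of 0.73 ± 0.23 just missed the threshold (limma adjusted p = 0.0567). It passed in 3 of the 15 alternative fits. These were the fit without Cre-positive replicate 1, at 0.99 with limma adjusted p = 0.00637, and that after a second quantile normalization, at 0.72 with limma adjusted p = 0.0470. The last was the fit without genes below the median level, at 0.73 with limma adjusted p = 0.0404.

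Il18r1, the binding chain of the interleukin-18 receptor, had the greatest rise of the 4 member receptors of the family. It was at 6.46, 6.36 and 6.89 in Cre-positive arrays, against 5.04, 5.51 and 5.35 in Cre-negative arrays, a difference of 1.27 ± 0.17 or 2.40-fold (limma adjusted p = 0.00178, and 0.0317 with the sex term). Il1r1, the signalling receptor for interleukin-1, was at 8.03, 8.29 and 8.58 in Cre-positive arrays, against 7.54, 7.71 and 7.61 in Cre-negative arrays (0.68 ± 0.14, limma adjusted p = 0.0111, and 0.0978 with the sex term, where the difference was 0.69). Neither gene overlapped between groups. Il1r2, the decoy receptor, was at 4.96, 5.06 and 5.15 in Cre-positive arrays, against 4.46, 4.31 and 4.90 in Cre-negative arrays. Its highest Cre-negative value was that of the male array, and the difference was 0.50 ± 0.15 (limma adjusted p = 0.0539), but 0.67 with limma adjusted p = 0.00893 without that array, Cre-negative replicate 3, which leaves male Cre-positive against female Cre-negative arrays. With the sex term the difference of Il1r2 was 0.15 (limma adjusted p = 0.596). Il1rap, the accessory chain that Il1r1 needs to signal, was at 5.98, 6.23 and 6.50 in Cre-positive arrays and 6.42, 6.45 and 6.50 in Cre-negative arrays, with overlap and no call (-0.22 ± 0.13, limma adjusted p = 0.298).

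Of the 27 genes that hold NLR, AIM2 and ASC, 2 rose, 1 fell and 24 did not pass, shares of 7.41% and 3.70%. No test of these shares against the 10.7% and 11.1% of all genes was made. Of the 27 genes 24 lay below the median level of all genes, above which 3887 of the 4844 calls over all genes were made. Nlrp6, an NLR best known from intestinal epithelium, showed the greatest fall of any member (Entrez gene 101613, probe set 17484670). It was at 7.41, 7.15 and 7.57 in Cre-positive arrays, against 9.07, 9.08 and 9.39 in Cre-negative arrays. No array came near the other group, and the difference was -1.80 ± 0.14, or 3.49-fold lower (limma adjusted p = 0.000178). With the sex term, that is against the male Cre-negative array, it was -2.02 and passed (limma adjusted p = 0.00191).

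Aim2, a sensor of cytosolic DNA, was at 5.61, 5.76 and 6.42 in Cre-positive arrays, against 5.21, 5.24 and 4.91 in Cre-negative arrays (0.81 ± 0.21, limma adjusted p = 0.0273). Nlrp10, an NLR without the leucine-rich repeats, was at 4.77, 5.36 and 5.0 in Cre-positive arrays, against 4.56, 4.29 and 4.21 in Cre-negative arrays (0.69 ± 0.16, limma adjusted p = 0.0202). The groups did not overlap for either gene, but these calls had the highest adjusted p of the 16. That of Aim2 was lost without any 1 of the 3 Cre-negative arrays or Cre-positive replicate 2 (limma adjusted p = 0.0503 to 0.0894), and that of Nlrp10 without Cre-negative replicate 2 or 3 (0.0671 and 0.0706). With the sex term the differences were 1.02 for Aim2 and 0.83 for Nlrp10, and neither passed (limma adjusted p = 0.0801 and 0.0798).

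Nlrp3, Nlrc4 and the adaptor Pycard did not pass. Nlrp3, which responds to many signs of cell damage, had a difference of 0.35 ± 0.15 (limma adjusted p = 0.133) and passed only when Cre-positive replicate 1 was left out, at 0.50 with limma adjusted p = 0.0305. Pycard was at 7.66, 7.75 and 7.93 in Cre-positive arrays, against 7.60, 7.58 and 7.58 in Cre-negative arrays, without overlap but with a difference of only 0.19 ± 0.09 (limma adjusted p = 0.197). Nlrc4, the partner of the NAIP proteins in sensing flagellin, was at 0.46 ± 0.17, and Nlrc5, a transactivator of class I antigen presentation genes, at 0.55 ± 0.19 (limma adjusted p = 0.0972 and 0.0824). Nod1 and Nod2, which sense fragments of bacterial cell wall, were at -0.05 ± 0.09 and -0.04 ± 0.09, with 95% intervals of -0.25 to 0.15 and -0.24 to 0.16. Nlrc3 and Nlrp12, both described as restraining inflammatory signalling, were at 0.18 ± 0.11 and 0.08 ± 0.11, and neither passed.

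The 3 neighbouring Nlrp1 genes had differences of 0.26 ± 0.12 for Nlrp1a, 0.52 ± 0.24 for Nlrp1b and 1.04 ± 0.33 for Nlrp1c-ps, the last with limma adjusted p = 0.0616. The suffix of that last symbol marks a pseudogene, which the rule counts as a member. Nlrp1c-ps was at 4.15, 5.68 and 5.22 in Cre-positive arrays, against 4.02, 3.94 and 3.97 in Cre-negative arrays, so that only Cre-positive replicates 2 and 3 stood clearly above, and without Cre-positive replicate 1 the difference was 1.47 with limma adjusted p = 0.00119. These genes are close copies, and the assignment of their probe sets to 1 gene is uncertain. The remaining 13 NLR genes, Nlrp2, Nlrp5, Nlrp14, Nlrp4a to Nlrp4g, and Nlrp9a to Nlrp9c, are known mainly from oocytes and germ cells in mice. They stayed between 2.66 and 4.67 in all arrays, and none passed, with limma adjusted p from 0.193 to 0.980. The differences were -0.05 for Nlrp2, 0.22 for Nlrp5 and -0.13 for Nlrp14. In the Nlrp4 family they were 0.06 for Nlrp4a, -0.05 for Nlrp4b, -0.01 for Nlrp4c, 0.05 for Nlrp4d, 0.06 for Nlrp4e, 0.01 for Nlrp4f and -0.21 for Nlrp4g. In the Nlrp9 family they were 0.13 for Nlrp9a, -0.16 for Nlrp9b and -0.19 for Nlrp9c. Most of them are close copies as well.

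**Figure D3:**
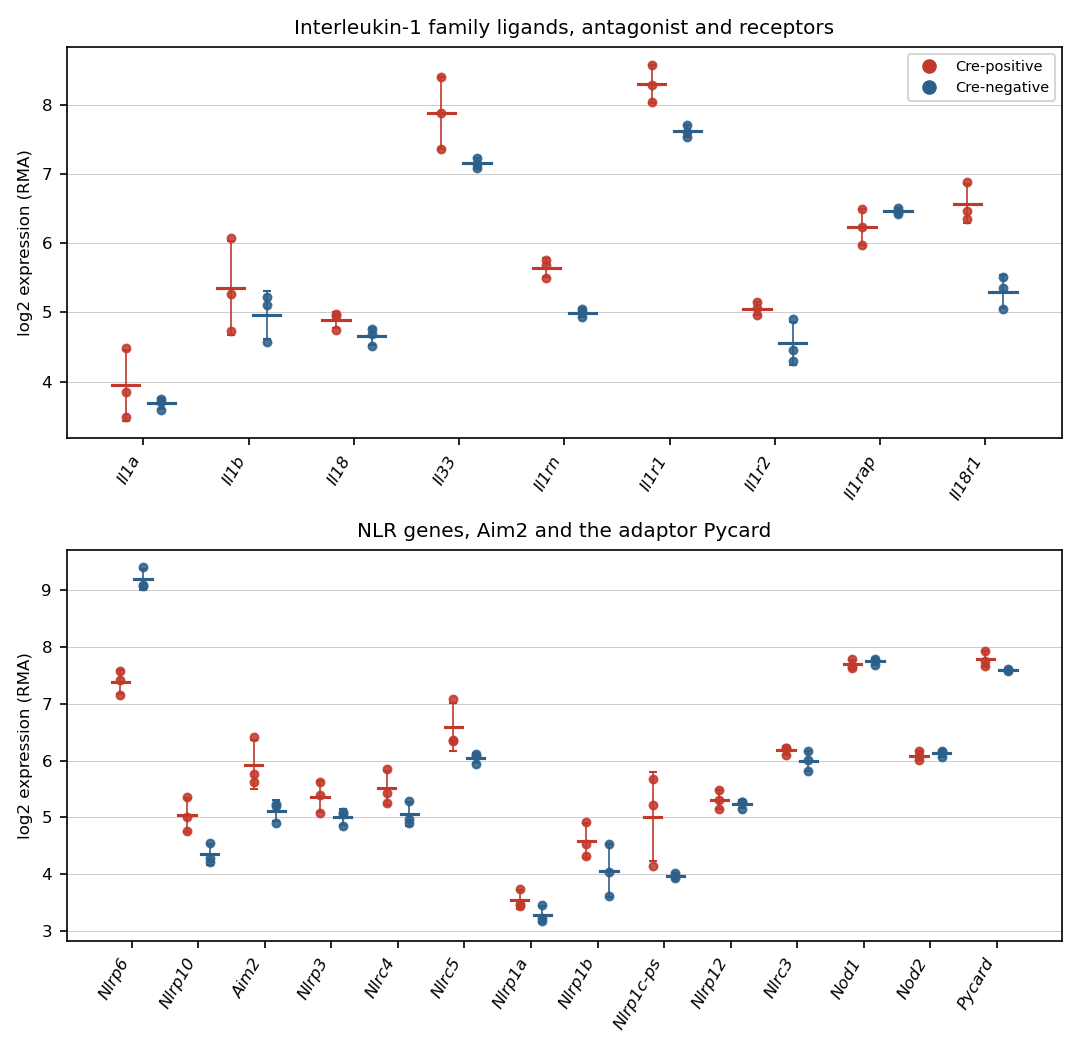
Log2 RMA level of the interleukin-1 family members (top) and of the NLR genes, Aim2 and Pycard without the 13 germ cell NLR genes (bottom) in every array. Points are arrays, bars the mean ± SD of 3 Cre-positive (left of each pair) and 3 Cre-negative arrays (right). Il18r1, Il1r1 and Il1rn are higher without overlap, Il1a, Il1b and Il18 overlap, and Nlrp6 lies far lower in the Cre-positive arrays.

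Other genes of the pathway, from ligands and accessory proteins to target genes, were read from the same fit in 6 lists. Of their 90 measured genes 36 were higher, 3 lower and 51 did not pass, with a median difference of 0.28. That is 40% higher and 3.33% lower, beside 10.7% and 11.1% of all genes. With the sex term 24 of these 39 calls held, 23 of genes that were higher and 1, Sigirr, of a gene that was lower. Cd36 was called lower in addition. Over all genes 4.10% were higher and 5.05% lower with this term. In signal transduction 6 of 20 rose and 0 fell. The rises were those of the NF-kappaB subunits Rela (0.95 ± 0.10), Nfkb2 (1.05 ± 0.12) and Relb (0.67 ± 0.12), of the kinases Ikbke (0.83 ± 0.13) and Ikbkb (0.39 ± 0.10), and of Irf7 (0.96 ± 0.15), an interferon regulatory factor downstream of Tlr7 and Tlr9. The calls of Relb and Ikbkb were lost with the sex term (limma adjusted p = 0.0968 and 0.159), and that of Ikbkb held in 1 of the 6 fits that leave out an array. Traf6 (0.04 ± 0.08) and Map3k7 (0.00 ± 0.08), which act between the IRAK kinases and NF-kappaB, did not pass.

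Negative regulators held 7 rises and 2 falls among 15 genes. Nfkbiz encodes an atypical protein of the IkappaB family and is induced by Toll-like receptor and interleukin-1 signals. It was listed here by its family, and whether it acted as a brake was not tested. Nfkbiz was at 8.28, 8.47 and 8.30 in Cre-positive arrays, against 6.59, 6.62 and 6.60 in Cre-negative arrays (1.75 ± 0.09, limma adjusted p = 4.19e-05). Tnfaip3, which encodes the ubiquitin-editing enzyme A20, was at 7.26, 7.55 and 7.41 in Cre-positive arrays, against 6.05, 6.09 and 6.02 in Cre-negative arrays (1.35 ± 0.10, limma adjusted p = 0.000132). Both stood well apart between groups with little spread. Nfkbie (1.31 ± 0.16), the RNase gene Zc3h12a (0.59 ± 0.08) and Nfkbia (0.72 ± 0.12) also rose, the call of Nfkbia being lost with the sex term (limma adjusted p = 0.0599). Sigirr, a receptor that dampens interleukin-1 and Toll-like receptor signals, fell (-0.54 ± 0.08, limma adjusted p = 0.00248), while Tollip (-0.01 ± 0.09) and Socs1 (0.08 ± 0.09) did not pass. The remaining calls were rises of Dusp1 (0.73 ± 0.17) and Tnip1 (0.39 ± 0.10) and a fall of Cd200 (-0.47 ± 0.10). All of these were lost with the sex term.

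Among 14 inflammasome effectors 6 rose and 0 fell. Casp4, the caspase that senses cytosolic lipopolysaccharide (caspase-11 in mice), was at 7.15, 7.83 and 7.64 in Cre-positive arrays, against 5.79, 5.77 and 5.42 in Cre-negative arrays (1.88 ± 0.18, 3.68-fold, limma adjusted p = 0.000468). Casp1, which processes interleukin-1 beta, was at 4.18, 4.80 and 4.95 in Cre-positive arrays, against 3.98, 4.10 and 3.76 in Cre-negative arrays (0.70 ± 0.20, limma adjusted p = 0.0410, and 0.110 with the sex term). The groups of both genes were apart, those of Casp4 more widely. Gsdmd, the pore protein that caspases cut (0.80 ± 0.10), the channel gene Panx1 (0.86 ± 0.09), the ATP receptor gene P2rx7 (1.06 ± 0.24) and Naip6 (0.93 ± 0.24) rose too. The calls of P2rx7 and Naip6 were lost with the sex term (limma adjusted p = 0.104 and 0.203). Of the 6 fits that leave out an array, the call held in 4 for P2rx7, 2 for Naip6 and 1 for Casp1. Naip6 belongs to a family of near-identical genes, so its probe set may not be specific. Nek7 (-0.09 ± 0.10), a partner of NLRP3, and Casp8 (0.10 ± 0.11) did not pass.

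Of 14 accessory proteins and endogenous ligands 5 rose and 1 fell. Lbp, the lipopolysaccharide binding protein that feeds Cd14, was at 9.49, 9.43 and 10.29 in Cre-positive arrays, against 7.90, 7.80 and 7.89 in Cre-negative arrays (1.87 ± 0.21, limma adjusted p = 0.000904). The matrix genes Tnc (1.79 ± 0.21), Fn1 (1.40 ± 0.19) and Bgn (0.66 ± 0.15), whose products can act on Toll-like receptors, and Unc93b1 (0.96 ± 0.20), which brings endosomal receptors to their place, rose as well. The chaperone gene Hsp90b1, needed to fold most Toll-like receptors, was lower at -0.33 ± 0.09 (limma adjusted p = 0.0382), a call that was lost with the sex term (0.257) and held in 1 of the 6 fits that leave out an array. The calls of Bgn and Unc93b1 were lost with the sex term as well (limma adjusted p = 0.0980 and 0.0940). Cd36, a scavenger receptor that assists Tlr2, did not pass at -0.98 ± 0.30 (limma adjusted p = 0.0509), but was at -1.72 with the sex term (0.00450). The alarmin genes S100a8 (0.04 ± 0.16) and S100a9 (0.01 ± 0.10) did not pass, and were dim in all arrays, at 3.45 to 3.95 and 4.13 to 4.41.

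In the list of other interleukin-1 family genes 3 of 9 rose and 0 fell. Il1f6, which encodes interleukin-36 alpha, was at 6.60, 6.82 and 6.94 in Cre-positive arrays, against 4.90, 4.73 and 4.75 in Cre-negative arrays (1.99 ± 0.11, 3.98-fold, limma adjusted p = 5.98e-05). Il1rl2, the receptor chain for interleukin-36, was at 6.44, 6.80 and 7.37 in Cre-positive arrays, against 5.73, 5.64 and 5.43 in Cre-negative arrays (1.27 ± 0.22, limma adjusted p = 0.00501). Il18rap, the accessory chain of the interleukin-18 receptor, was at 5.16, 5.44 and 5.76 in Cre-positive arrays, against 4.61, 4.68 and 4.39 in Cre-negative arrays (0.89 ± 0.16, limma adjusted p = 0.00595). In all 3 genes the groups did not overlap, and the calls held with the sex term. Both chains of the interleukin-18 receptor were therefore among the genes that rose, as were a ligand and the receptor chain of the interleukin-36 branch. Il1f8 (-0.06 ± 0.10) and Il1f9 (0.06 ± 0.08), which encode the other 2 agonists of that receptor, did not pass. Both were dim in all arrays, at 3.49 to 3.78 and 3.67 to 3.86, where the median level of all genes was 6.34. A change in them could therefore be missed.

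Target genes of NF-kappaB held 9 rises and 0 falls among 18. Lcn2, which encodes the iron-binding protein NGAL released by injured tubules, was at 10.98, 10.65 and 10.86 in Cre-positive arrays, against 7.0, 7.06 and 7.33 in Cre-negative arrays (3.70 ± 0.12, 13-fold, limma adjusted p = 1.63e-05). Ccl2, a chemokine that attracts monocytes, was at 8.49, 9.33 and 9.16 in Cre-positive arrays, against 5.81, 5.84 and 5.85 in Cre-negative arrays (3.16 ± 0.20, limma adjusted p = 9.15e-05). In both genes every Cre-positive array lay far above the Cre-negative ones. The adhesion molecule genes Vcam1 (2.94 ± 0.21) and Icam1 (1.21 ± 0.10), the neutrophil chemokine gene Cxcl1 (1.87 ± 0.12) and Tnf (0.71 ± 0.11) rose as well. Cxcl2 (1.05 ± 0.20), Ccl3 (1.02 ± 0.26) and Saa3 (0.53 ± 0.13) also rose, but their calls were lost with the sex term. Il6 (0.32 ± 0.16), at only 2.86 to 3.63 in all arrays, and Nos2 (-0.02 ± 0.12) did not pass.

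**Figure D4:**
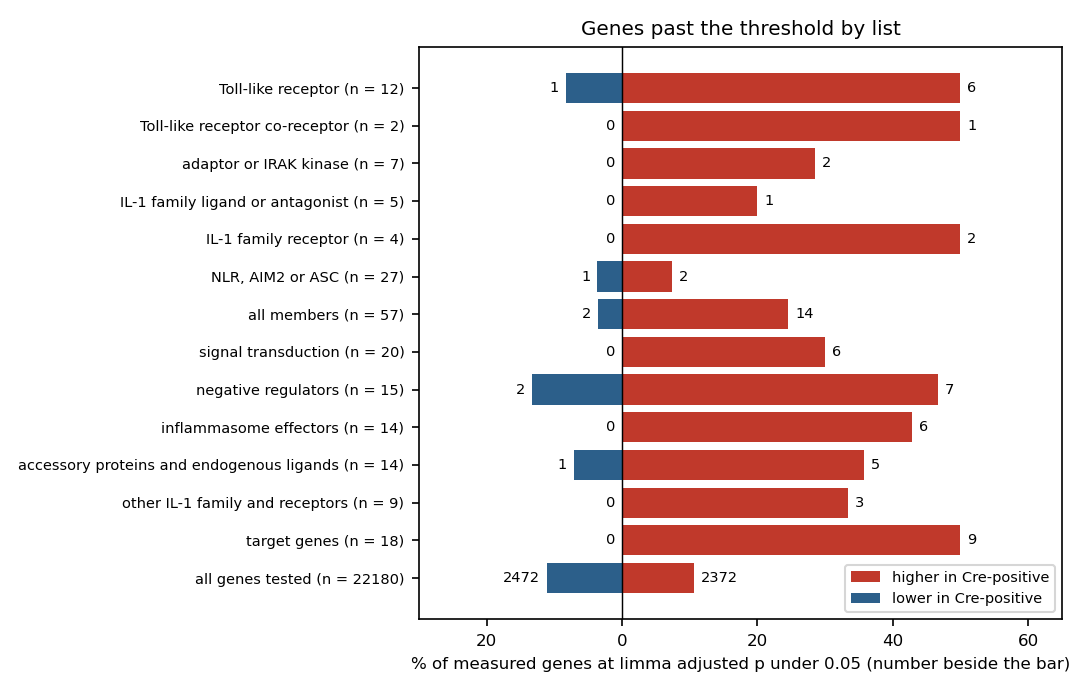
Share of measured genes in each list that were higher (right of 0) or lower (left of 0) in Cre-positive arrays at a limma adjusted p under 0.05, with the number of genes beside each bar. Toll-like receptors and NF-kappaB target genes reach 50% higher, the NLR, AIM2 and ASC genes 7.41% higher, and all genes tested 10.7% higher.

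Markers of macrophages and monocytes were higher in the same arrays. Of 13 measured markers 10 rose and 0 fell (5 with the sex term), among them Itgam (2.40 ± 0.23) and Cd68 (2.13 ± 0.21), while Csf1r (0.31 ± 0.25), Ly6c2 (0.13 ± 0.10) and Mertk (-0.08 ± 0.10) did not pass. The summed linear level of the list was 5291 to 10146 in Cre-positive arrays, against 3278 to 3497 in Cre-negative arrays. Of the general leukocyte markers 2 of 3 rose, with sums of 376.5 to 752.6 in Cre-positive and 292.8 to 321.8 in Cre-negative arrays. Among 9 neutrophil markers 1, Csf3r, rose, with sums of 281.8 to 298.4 in Cre-positive and 248.8 to 256.9 in Cre-negative arrays. Of 5 dendritic cell markers 1, Itgax, rose (298.3 to 377.9 in Cre-positive and 272.7 to 296.5 in Cre-negative arrays), and of 7 lymphocyte markers 0 passed limma's test (287.5 to 440.2 in Cre-positive and 313.8 to 323.4 in Cre-negative arrays), where an unadjusted p under 0.05 was reached by 1 in the higher and 2 in the lower direction. Of 5 endothelial markers 4 fell, with sums of 3433 to 4942 in Cre-positive and 5987 to 6272 in Cre-negative arrays. Of 10 kidney epithelium markers 6 fell and 1 rose, and 5 of the falls and 0 rises passed with the sex term. Their sums were 21844 to 24639 in Cre-positive and 36960 to 39150 in Cre-negative arrays. With the sex term the calls of the general leukocyte markers Ptprc and Coro1a and of Itgax were lost (limma adjusted p = 0.140, 0.203 and 0.123), that of Csf3r held (0.0308), and 1 of the endothelial falls, that of Kdr, held. RMA gives no value of 0, so none of these markers can be read as absent. Their part in the rises and falls of the members was not tested.

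Replicate 3 was most often the highest Cre-positive array, both for the members that rose and for the macrophage markers. Of the 14 members that rose, 12 had their highest value in Cre-positive replicate 3, as did 12 of the 13 macrophage and monocyte markers and 992 of the 2372 genes that were higher, or 41.8%. The median excess over the Cre-negative mean in Cre-positive replicates 1, 2 and 3 was 0.95, 1.05 and 1.31 for those 14 members, and 0.87, 1.48 and 2.00 for the macrophage markers. Cd14 and Tlr4 were nearly level across the 3 Cre-positive arrays, whereas Tlr13, Tlr7 and Aim2 were clearly highest in replicate 3. Without Cre-positive replicate 3, 15 members were higher and 3 lower, where 2270 and 2615 of all genes were. Without Cre-positive replicate 1, 20 members were higher and 2 lower, where 2234 and 2135 of all genes were.

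**Figure D5:**
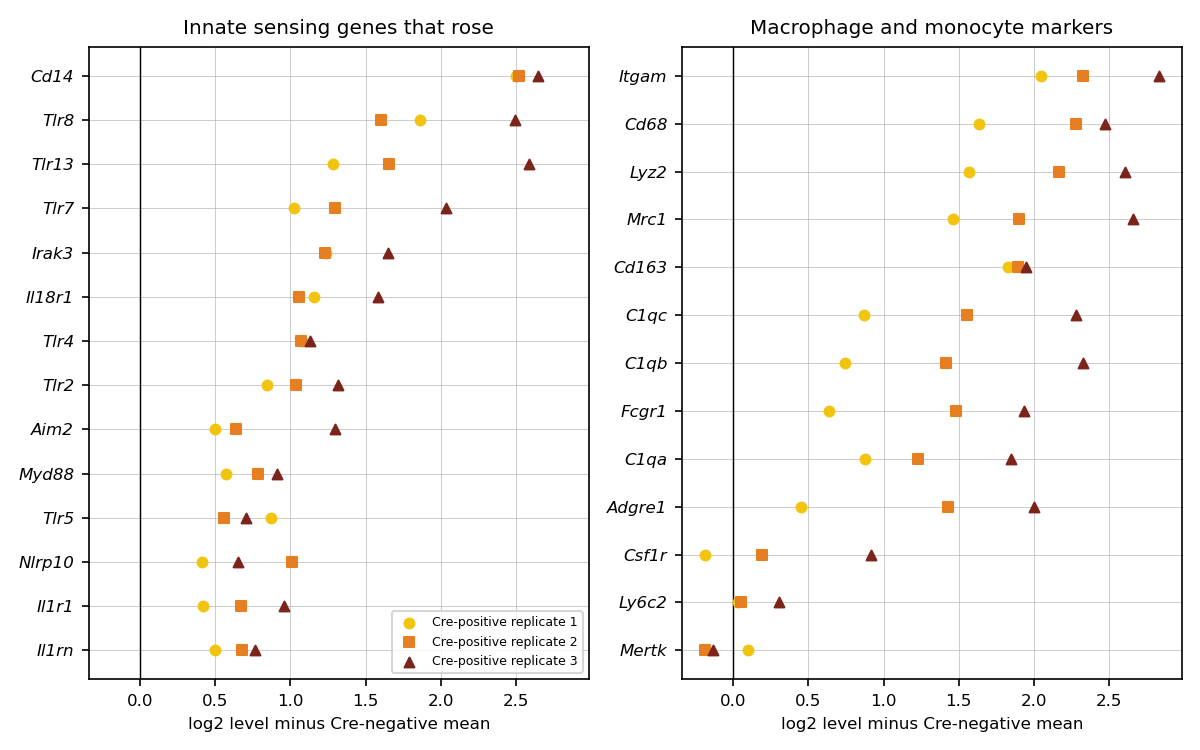
Log2 level in each Cre-positive array minus the mean of the 3 Cre-negative arrays, for the 14 innate sensing genes that rose (left) and the 13 macrophage and monocyte markers (right), each sorted by mean difference. Replicate 3 (triangles) is highest for 12 genes on each side, and the 3 arrays lie closest together for Cd14, Tlr4 and Cd163.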

How the data were processed

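Gene expression was measured on 6 single-colour Affymetrix arrays, 3 Cre-positive and 3 Cre-negative by their titles. One table of log2 values was deposited by the authors. The submitters' processing notes name RMA, which corrects background, normalizes by quantiles and summarises probes, and Partek, without versions. The log2 scale was read from the convention of RMA and the range of 1.89 to 13.6. RMA compresses dim probe sets, so their differences are understated. The genome build of the probe sets is not given in the sources used here.

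Of 41345 rows, 23521 had exactly 1 gene symbol in the platform annotation, 1814 several and 16010 none. A gene with several rows was represented by its brightest row on average, which left 22180 genes, with no filter on low values. Of the 57 members 3 had several rows. There were 0 columns of other samples. The Cre-positive and Cre-negative groups were tested over all genes with lmFit and eBayes of limma 3.58.1 (R 4.3.3, two-sided, without covariates), with Benjamini-Hochberg adjustment and a threshold of 0.05, and the script was tested on simulated data. With 3 against 3 arrays an exact permutation test of 1 gene cannot go below p = 0.10, so none is given. The members and gene lists were chosen with earlier results of these data known, as were the sex term and the arrays left out as a pair. The genes with values in each array are the members that passed and all 9 interleukin-1 family members, and in the lists up to 6 that passed, by smallest p, and up to 2 that did not. Further members with values in each array, Cd36, Cxcl2, Ccl3, Saa3, Dusp1, Tnip1, Cd200 and the marker genes named were chosen after they were seen. Promoters came from RefSeq, and Python 3.11.15 (pandas 2.3.3, matplotlib 3.10.9) made tables and figures. As alternatives the fit was repeated after quantile normalizing again, after median centring, with a filter on low values, with eBayes set to trend and robust, on each gene's mean over its rows, with the replicate block, with the sex term, on male arrays alone, at a threshold of 0.01, and without each array or the 2 arrays with transcripts of other tissues.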

Additional observations from a re-analysis of the deposited data

How the results depend on the processing

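The 2 falls, of Nlrp6 and Tlr12, and the rises of Cd14, Tlr4 and Irak3 passed limma's threshold in all 15 refits, as did that of Il18r1 in the 14 that tested it, and no call of a member changed sign. Against 14 members higher, there were 9 without genes below the median level, where 35 of the 57 members are left out by construction, 9 with the sex term and 4 with male arrays alone, a fit of 3 arrays against 1 that assumes the lone array varies like the others. All genes called numbered 909 higher and 1121 lower with the sex term, 510 and 591 with male arrays alone, 879 and 974 without replicate 2 of either group, and 1180 and 1336 at a threshold of 0.01. The pathway lists held 23 higher genes with the sex term and 16 with male arrays alone, and lower ones numbered 5 with median centring and 1 each with male arrays alone, without both second replicates and at 0.01. Leaving out 1 array gave 12 to 20 members higher and 2 to 3 lower, and 1481 to 2270 genes higher and 1660 to 2615 lower over all, the fewest without Cre-negative replicate 1. The cause of these shifts was not tested. With the replicate block, 15 members were higher and 2 lower, where 1947 and 2030 of all genes were, with the call of Aim2 lost (limma adjusted p = 0.0598) and those of Il1r2 and Nlrc4 gained (0.0423 and 0.0314). Over all genes, the deviations of same-numbered arrays from their group means had correlations of 0.03, -0.04 and -0.01 for numbers 1, 2 and 3. Sex and transcripts of other tissues also enter these deviations, so the correlations cannot show whether such arrays share more than a number. The number of arrays limits the precision.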

Other observations

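More than 1 probe set was present for 3 members. The other probe sets of Il1rap were at -0.07 and -0.10, beside -0.22 for the one used, the second of Nlrp4b at -0.14, beside -0.05, and the second of Nod2 at 0.00, beside -0.04. None of these 7 passed in a limma fit over all rows with 1 symbol (adjusted p from 0.303 to 0.990). Another 5 probe sets, which the annotation assigns to Nlrp4e, Nlrp4c and Gm4541 together, were not used above and were not tested. Their ranges repeated among them. Some lay at 3.90 to 4.07 in Cre-positive and 4.09 to 4.30 in Cre-negative arrays. The rest lay at 3.63 to 3.65 in Cre-positive and 3.65 to 3.73 in Cre-negative arrays. In each, all Cre-positive values were below the Cre-negative ones, if barely, as they were for 19.9% of all genes.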
